A study of Mus musculus with 6 samples.

Results

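The genes described are 4 keratins (Krt8, Krt18, Krt19 and Krt7), vimentin (Vim), the epithelial adhesion protein Epcam, the cytoplasmic actins Actb and Actg1, and the tubulins Tubb5 and Tuba1b. They were picked by their Ensembl transcript identifier, and a row was kept only where the length value deposited beside the identifier was 9 below the number of residues given for that gene's protein. All 10 met this condition, out of 142314 rows in the files and 39355 distinct rows with a count in any library. The study asked how translation in pancreatic acinar cells changes when METTL18, a methyltransferase of the ribosomal protein RPL3, is lost. Ribosome-protected fragments (footprints) were counted in 266-6 cells, a mouse line of pancreatic acinar origin, in 3 wild-type (WT) libraries and 3 Mettl18 knockout (KO) libraries. Cells of both genotypes carried a transfected plasmid for Reg1-FLAG, were grown for 48 h and were lysed with 100 μg/ml cycloheximide, which stalls ribosomes on the mRNA. The labels do not say how the knockout was made, whether it is 1 clone or several, or whether the libraries of a genotype are separate cultures, so p-values measure only the spread between these libraries, which may be technical.

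Intermediate filaments, actin filaments and microtubules are the 3 filament systems of the cytoskeleton. Keratins assemble only as pairs of a type I and a type II chain; KRT8 with KRT18 is the pair of simple epithelia, acinar cells included, while KRT19 and KRT7 mark the duct cells of the pancreas. Vimentin is the intermediate filament of mesenchymal cells and of many cultured lines. Beta-actin and gamma-actin are nearly the same protein made from separate genes, and α-tubulin with β-tubulin forms the building block of the microtubule.

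Once rows with identical counts were merged, a WT library held 3792964 to 5131937 counts and a KO library 5379044 to 7106203. KO replicates 2 and 3 were the most alike (r of their log2 levels over the transcripts tested was 0.982, against 0.882 to 0.966 for all other pairs), so results are also given with them summed. A length contrast was computed over tested transcripts with a mean level, on the log2 scale, of at least 5 CPM. Levels were taken relative to the mean over all 6 libraries. The contrast is the median log2 level of transcripts with a deposited length value of at least 1000, less that of transcripts under 200. It was -0.07, -0.30 and 0.47 for WT replicates 1 to 3 and 0.18, -0.18 and -0.14 for KO replicates 1 to 3. Mettl18 itself could not be looked up, since the files give identifiers without gene names, which leaves the genotype labels unchecked by the targeted gene. No RNA-seq was used here: a footprint level reflects both the amount of an mRNA and how many ribosomes it carries, and in bulk samples fewer cells of a type cannot be told apart from less RNA per cell.

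Actins and tubulins had the highest footprint density of the 10 genes and the ductal keratins the lowest. Density is given as CPM (counts relative to the library total, scaled by the TMM method) per 1000 codons, which allows genes of different length to be compared. The density of Actb was 3610 ± 815 in WT cells and 5255 ± 760.0 in KO cells (SD over 3 libraries each, as for all values below). Tuba1b had 3276 ± 578 and 3733 ± 491, Tubb5 1777 ± 522 and 2156 ± 375, and Actg1 1238 ± 327 and 2726 ± 435. Among all distinct rows, these 4 genes stood at percentiles 99.5 to 99.9 of density. Their mean order over the 6 libraries was Actb, Tuba1b, Actg1 and Tubb5. The ranges over libraries overlapped for every pair of neighbours. Within each library, however, Actb exceeded Tuba1b (by little in WT replicate 1, 3347 against 3299) and Tuba1b exceeded Actg1. Only the last pair changed order: Tubb5 exceeded Actg1 in each WT library whereas Actg1 exceeded Tubb5 in each KO library. Vim followed at 55.6 ± 9.73 and 63.4 ± 12.7, 33.1-fold below Tubb5 on the mean of all libraries. Epcam had 34.4 ± 6.84 and 22.6 ± 1.58, Krt18 14.4 ± 2.24 and 10.9 ± 0.823, and Krt8 2.87 ± 1.26 and 4.00 ± 1.70. From Tubb5 down to Krt7, each gene's lowest library lay above the highest library of the next gene. Krt7 and Krt19 were the lowest and overlapped.

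**Figure D1:**
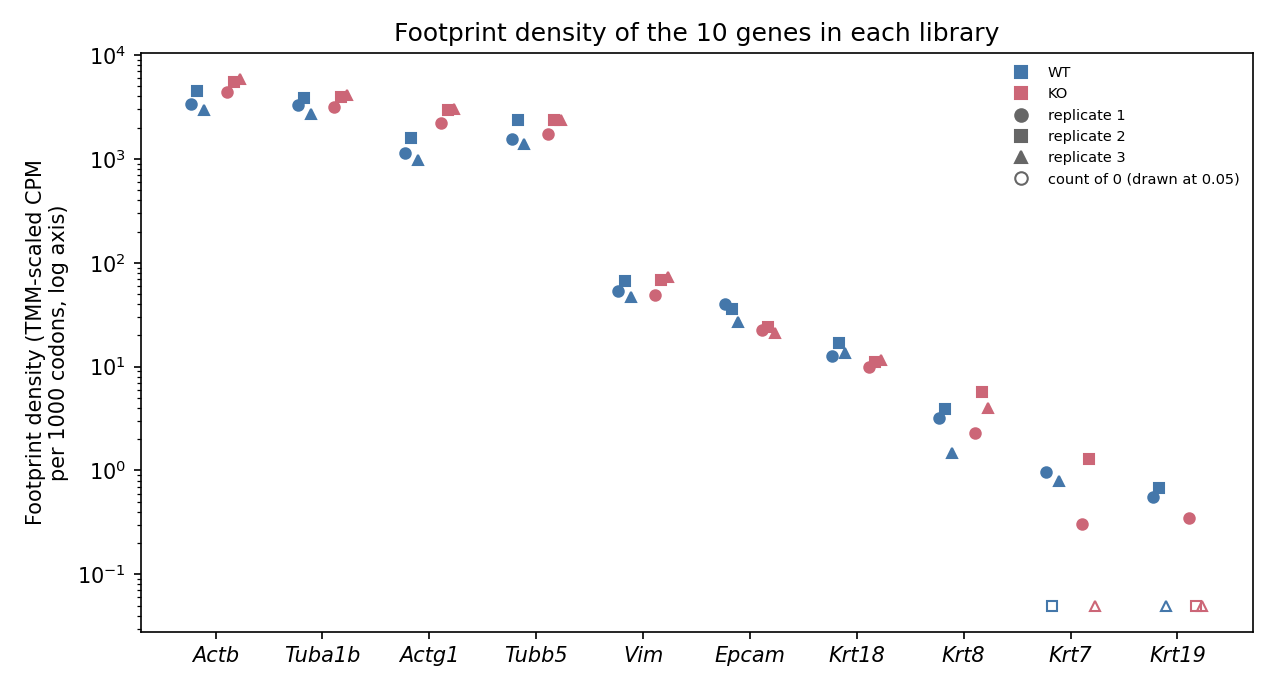
Footprint density (TMM-scaled CPM per 1000 codons, log axis) of the 10 genes in 3 WT (blue) and 3 KO (red) libraries, ordered by the mean; marker shapes give the replicate and open symbols at 0.05 stand for a count of 0. The 4 actin and tubulin genes lie 33.1-fold and more above Vim on the mean, and the keratins are at the bottom.

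The keratins that define simple epithelium had few footprints in cells labelled as acinar, and the ductal keratins almost none. Krt8, the type II keratin of simple epithelia (ENSMUST00000023952.9; chr15:101996711-102004342), had 7, 7 and 4 counts in WT, or 1.56, 1.93 and 0.723 CPM. In KO it had 8, 19 and 10 counts, or 1.13, 2.79 and 1.96 CPM, and the genotypes overlapped. Its partner Krt18, the type I chain (ENSMUST00000023803.7; chr15:102028216-102032026), had 24, 26 and 32 counts in WT and 30, 32 and 25 in KO. Both genes thus had counts in every library; Krt8 stood at percentile 10.8 of density among all distinct rows and Krt18 at percentile 29.3. The ductal type I keratin Krt19 (ENSMUST00000007317.7; chr11:100140810-100145926) had 1, 1 and 0 counts in WT and 1, 0 and 0 in KO. The ductal type II keratin Krt7 (ENSMUST00000068904.8; chr15:101412403-101427806) had 2, 0 and 2 counts in WT and 1, 4 and 0 in KO. A count of 0 allows a level of up to 0.791 CPM for Krt7 in WT replicate 2. For Krt19 it allows up to 0.585 CPM in WT replicate 3 and 0.422 CPM in KO replicate 2. In KO replicate 3, where both were at 0, the limit is 0.558 CPM. These limits are 3 counts over the library total and cover counting error only. Unlike the other CPM values, they are without TMM scaling. All 4 keratins together received 34, 34 and 38 counts in WT and 40, 55 and 35 in KO, or 7.94 ± 1.29 CPM and 6.86 ± 1.23 CPM.

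Vimentin and Epcam had more footprints than the keratins but far fewer than the actins and tubulins. Vim (ENSMUST00000028062.7; chr2:13574311-13582826) had 111, 112 and 122 counts in WT, or 24.8, 30.9 and 22.0 CPM, and 162, 217 and 173 counts in KO, or 22.8, 31.9 and 33.9 CPM. The genotypes overlapped. Epcam (ENSMUST00000053577.8; chr17:87635979-87651127), a surface protein of epithelial cells, had 12.7, 11.3 and 8.49 CPM in WT on 57, 41 and 47 counts, and 7.04, 7.65 and 6.66 CPM in KO on 50, 52 and 34 counts. Every KO library of Epcam was below every WT library. Per codon, Vim stood at percentile 73.6 of all distinct rows and Epcam at percentile 52.2. How reads that match several places in the genome were treated is not given in the sources used here. Keratins, actins and tubulins have close relatives and pseudogenes, so their counts are uncertain to that extent.

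Footprints on Actg1 rose in Mettl18 KO cells, and no other gene of the 10 passed the test. Genotype was tested with edgeR's quasi-likelihood test over 30588 distinct rows with enough counts, with Benjamini-Hochberg adjustment at 0.05. Of the 10 genes, 7 entered the test; Krt8, Krt19 and Krt7 were too low. Among the 7, 1 was called higher and 0 lower. Over all rows tested, 9.44% were called, 5.14% higher and 4.3% lower. The median log2 fold change was 0.19 over the 7 genes and -0.06 over all rows tested. Of the 7, 5 had values above 0, and the share of all rows above 0 was not computed. The log2 levels of these 5 moved together over the libraries (r of 0.70 to 0.97), so they are not 5 separate observations. At an unadjusted p under 0.05, edgeR gave 2 of the 7 higher (Actg1 and Actb) and 1 lower (Epcam), where 26% of all rows passed. DESeq2 gave 2 higher and 0 lower, against 19.6% of all rows, and limma-voom 2 higher and 1 lower, against 26.1%. After adjustment, DESeq2 (7.95% of all rows) and limma-voom (9.46%) also called 1 higher and 0 lower.

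Gamma-actin, encoded by Actg1 (ENSMUST00000071555.12; chr11:120345687-120348495), had 430.1, 600.5 and 362 CPM in WT on 1927, 2177 and 2006 counts. In KO it had 834, 1108 and 1124 CPM on 5925, 7534 and 5736 counts. The lowest KO library was above the highest WT library, with WT replicate 2 the nearest to KO. The means were 464 ± 123 and 1022 ± 163 CPM, and the fitted rise was 2.20-fold, or 1.14 ± 0.23 on the log2 scale (SE; adjusted p of edgeR's test 0.0174). Of the rows tested, 723 had a higher log2 fold change, which places Actg1 at percentile 97.6. Actg1 also moved with the length contrast given above: WT replicate 3 and KO replicate 1, each with the highest contrast of its genotype, had the lowest Actg1 level of their genotype. This was not particular to Actg1. The same libraries were the lowest of their genotype for Actb, Tuba1b, Tubb5 and Vim, though not in both genotypes for Krt18 or Epcam. With each library's trend over length removed, the log2 fold change of Actg1 was 1.15 (adjusted p by edgeR 0.00963). The size of the Actg1 change varied little when libraries were left out, but the call did not hold in each case. The adjusted p was 0.0792 without WT replicate 1, 0.104 without KO replicate 2 and 0.0998 without KO replicate 3, with log2 fold changes of 1.08, 1.08 and 1.07. With the close KO replicates 2 and 3 summed as 1 sample, it was 1.07 with an adjusted p of 0.0967.

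**Figure D2:**
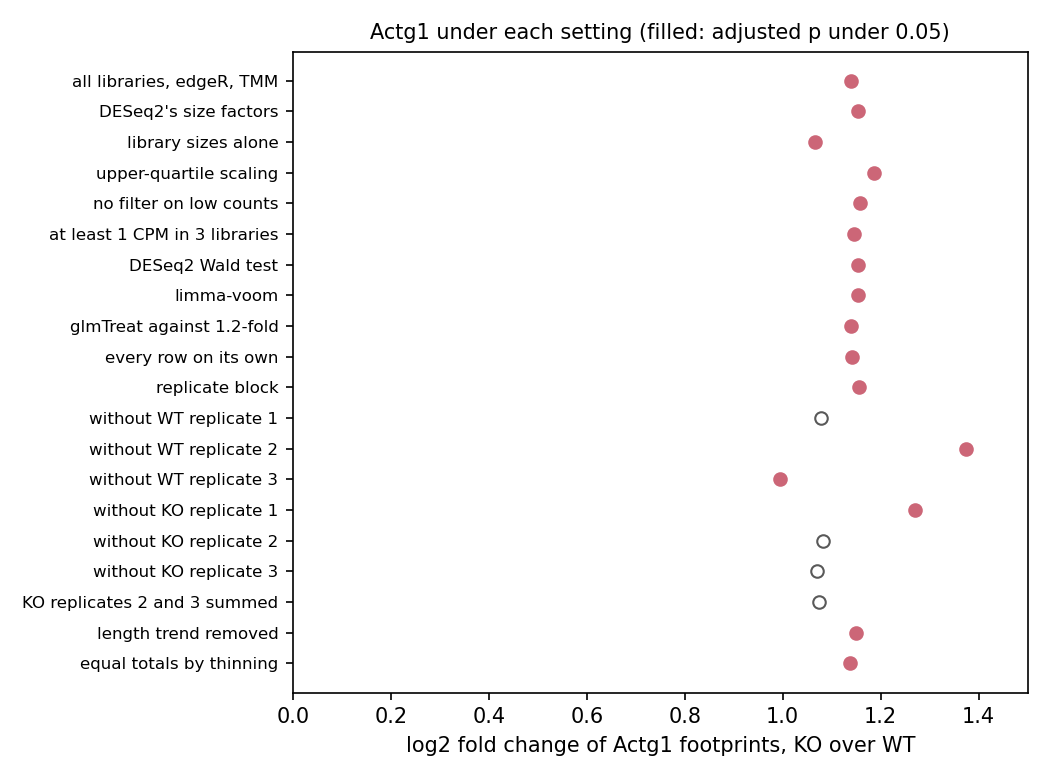
Log2 fold change of Actg1 footprints (KO over WT) with all libraries and under 19 alternatives; filled symbols have an adjusted p under 0.05, open symbols do not. All values lie between 0.99 and 1.37, and the 4 open symbols are the fits without WT replicate 1, without KO replicate 2, without KO replicate 3 and with these 2 KO libraries summed.

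Beta-actin, encoded by Actb (ENSMUST00000100497.10; chr5:142903115-142907976), had 1255, 1696 and 1109 CPM in WT and 1649, 2072 and 2191 CPM in KO. The genotypes overlapped, since WT replicate 2 exceeded KO replicate 1. The means were 1354 ± 306 and 1971 ± 285 CPM, and its log2 fold change was 0.54 ± 0.24 (SE; adjusted p by edgeR 0.180). Without WT replicate 2 it was 0.74 and passed the test (adjusted p = 0.0373).

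The balance between the cytoplasmic actins differed between the genotypes, with little spread within them. Actg1 made up 25.5%, 26.1% and 24.6% of the counts on both actins in WT and 33.6%, 34.8% and 33.9% in KO. The exact (Clopper-Pearson) 95% intervals, which cover counting error only, ended at 27.1% in the highest WT library and began at 32.9% in the lowest KO library. The means were 25.4% ± 0.765 and 34.1% ± 0.653, a difference of 8.69 percentage points. This share needs no scaling between libraries. It differed by at most 1.52 percentage points within WT, where the Actg1 level itself varied 1.66-fold between libraries. The log2 ratio of Actb over Actg1 fell by 0.60 from 1.55 ± 0.06 to 0.95 ± 0.04 (exact two-sided permutation p = 0.1, the smallest that 3 against 3 allows; 0.25 after adjustment over the 5 ratios computed). Both coding regions are very similar, and a footprint that fits both could have been counted on either, on both or on neither; what this does to the share was not tested.

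**Figure D3:**
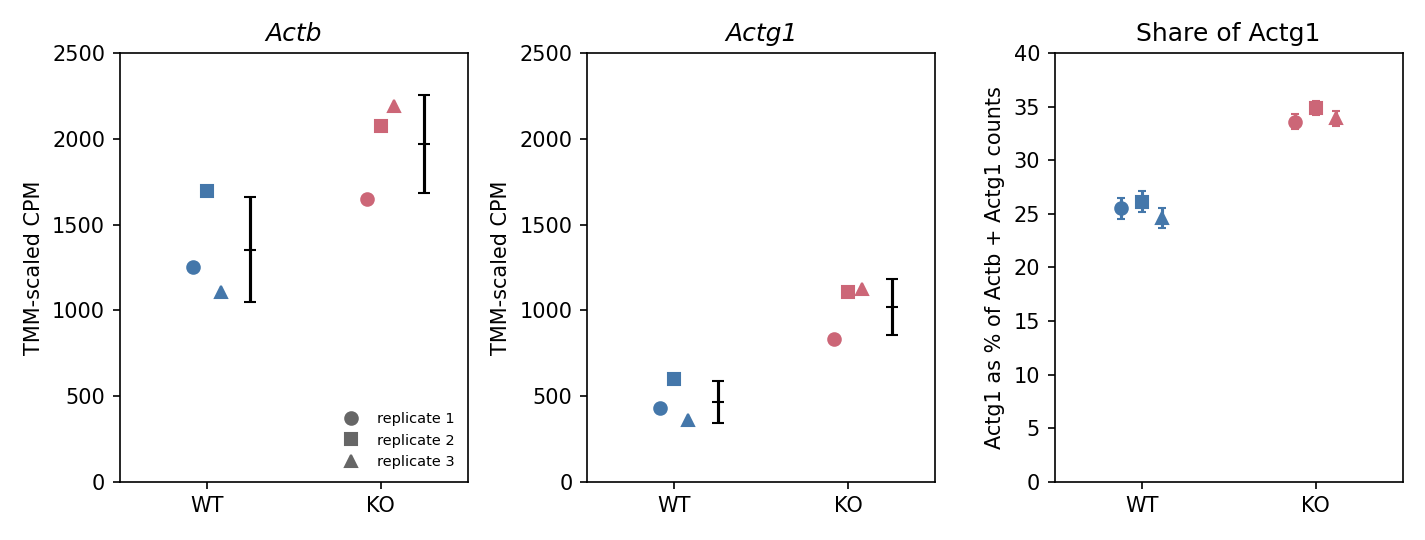
TMM-scaled CPM of Actb and Actg1, and Actg1 as a percentage of the counts on both genes, in 3 WT (blue) and 3 KO (red) libraries; black bars give mean and SD, coloured bars exact 95% counting intervals. The share lies between 24.6% and 26.1% in WT and between 33.6% and 34.8% in KO, while the Actb levels of the genotypes overlap.

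The tubulins did not pass the test. Tuba1b, an α-tubulin (ENSMUST00000077577.7; chr15:98931429-98934390), had 1488, 1733 and 1212 CPM in WT and 1432, 1771 and 1848 CPM in KO, and its log2 fold change was 0.19 ± 0.22 (SE; adjusted p by edgeR 0.625). Tubb5, a β-tubulin (ENSMUST00000001566.9; chr17:35833920-35838301), had 692, 1054 and 621 CPM in WT and 765, 1045 and 1062 CPM in KO, and its log2 fold change was 0.28 ± 0.25 (SE; adjusted p by edgeR 0.505). In both genes WT replicate 2 lay among the KO libraries, as did WT replicate 1 for Tuba1b, so the genotypes overlapped. The log2 ratio of Tubb5 over Tuba1b was -0.93 ± 0.20 in WT and -0.82 ± 0.07 in KO, a difference of 0.11 (exact two-sided permutation p = 0.5; 0.6 after adjustment) that was 0.02 without WT replicate 1 and 0.21 without WT replicate 2. With standard errors of this size, a moderate change of either tubulin could go undetected.

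Vim, Krt18 and Epcam also did not pass. The log2 fold change of Vim was 0.19 ± 0.20 (SE; adjusted p by edgeR 0.586). Krt18 had 5.36, 7.17 and 5.78 CPM in WT and 4.22, 4.71 and 4.90 CPM in KO; all KO libraries were below all WT libraries, and its log2 fold change was -0.40 ± 0.24 (SE; adjusted p by edgeR 0.326). Epcam had -0.60 ± 0.23 (SE; adjusted p by edgeR 0.131). Thus 3 of the 7 genes had genotypes that did not overlap, 1 higher in KO (Actg1) and 2 lower (Krt18 and Epcam); among all rows tested 30.8% did not overlap, 15.5% higher and 15.3% lower. For the genes with few footprints, the ratio of KO to WT was also computed from the summed counts, with an exact binomial interval for counting error only. It was 0.673 for Epcam (95% interval 0.529 to 0.857), 0.762 for Krt18 (0.557 to 1.04), 1.48 for Krt8 (0.819 to 2.75) and 0.897 for Krt7 (0.193 to 4.52). Krt19, with 2 counts over WT and 1 over KO, allows no ratio.

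**Figure D4:**
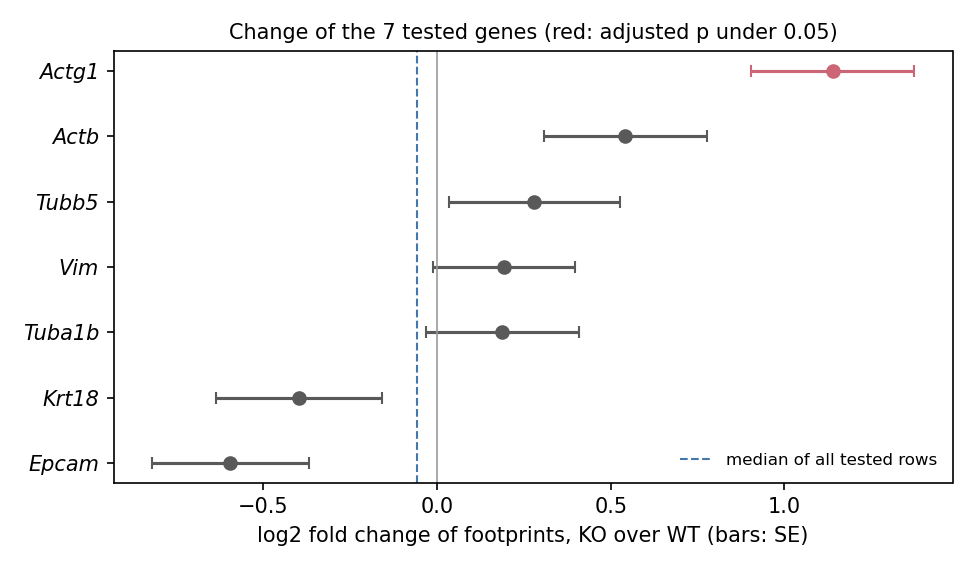
Log2 fold change of footprints (KO over WT, with SE) for the 7 tested genes, ordered by value; the dashed line is the median of all 30588 rows tested, -0.06. Actg1, in red, is the gene with an adjusted p under 0.05; Krt18 and Epcam have values below 0.

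Ratios between genes of related roles were planned for 7 pairs, and 5 could be computed; the pairs of Krt19 with Krt7 and with Krt18 had libraries at 0. Epcam over Vim, an epithelial against a mesenchymal product, had log2 ratios of -0.96, -1.45 and -1.38 in WT and -1.70, -2.06 and -2.35 in KO. All KO libraries were lower, by 0.77 on the mean (exact two-sided permutation p = 0.1, the smallest possible; 0.25 after adjustment). Krt8 over Krt18, the simple epithelial pair, was -2.22 ± 0.67 in WT and -1.33 ± 0.58 in KO, and the genotypes overlapped (exact two-sided permutation p = 0.3; 0.5 after adjustment). Krt8 over Vim was -4.31 ± 0.54 and -3.99 ± 0.43 (exact two-sided permutation p = 0.6; also 0.6 after adjustment). Both ratios with Krt8 rest on 4 to 19 counts of that gene in a library; the difference in Krt8 over Vim was 0.32, but 0.0048 without WT replicate 3 and 0.08 without KO replicate 2.

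The likeness of the tested genes over the 6 libraries is given as a description, since the libraries share genotype and scaling. For log2 CPM, Actg1 was most like Actb (Pearson's r = 0.97, n = 6 libraries). Vim was most like Tuba1b (0.96), and Tubb5 was most like Tuba1b (0.95). Krt18 and Epcam were most like each other (0.68). Epcam was the gene least like Actg1 (-0.68), Actb (-0.54), Tubb5 (-0.25), Vim (-0.16) and Tuba1b (-0.13). Actb was also close to Tubb5 (0.92), Tuba1b (0.89) and Vim (0.84), and Actg1 to Tubb5 (0.79), Tuba1b (0.77) and Vim (0.70), so the actins were not set apart from these genes.

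The sequence before the start of Actg1 is shown because it was the gene that passed the test, beside that of Tuba1b, which had a higher density and did not. The table of RefSeq windows used here (GRCm38.p6) was matched by 8 of the 10 genes, all but Actb and Krt19. Each line holds the 250 bases before the annotated start, 5′ to 3′ on the strand of the gene, and capitals mark a CArG box, the motif known to be bound by serum response factor, a regulator of actin genes. The Actg1 window is chr11:120348496-120348745 and the Tuba1b window chr15:98934391-98934640, both on the minus strand.
Actg1: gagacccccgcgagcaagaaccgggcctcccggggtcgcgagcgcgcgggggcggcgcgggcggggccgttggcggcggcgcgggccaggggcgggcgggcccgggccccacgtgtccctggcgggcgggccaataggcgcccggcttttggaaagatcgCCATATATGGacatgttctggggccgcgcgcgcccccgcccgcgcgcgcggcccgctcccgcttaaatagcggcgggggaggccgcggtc
Tuba1b: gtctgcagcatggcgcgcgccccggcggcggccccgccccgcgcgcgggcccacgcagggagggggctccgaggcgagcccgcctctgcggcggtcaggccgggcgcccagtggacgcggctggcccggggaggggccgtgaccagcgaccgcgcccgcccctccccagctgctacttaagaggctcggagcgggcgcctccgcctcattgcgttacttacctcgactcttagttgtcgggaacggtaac
The CArG box of Actg1, CCATATATGG, begins 90 bases before the start and reads the same on the other strand. The motif is symmetric, so a search of 1 strand covers both, and it was found in 1 of the 8 windows and in 1.47% of 32851 RefSeq windows of this length. Searched on both strands, CCAAT was found in the windows of Actg1, Vim and Tubb5 and in 33.8% of all windows, and TATAAA in that of Vim and in 12.4%. These searches were chosen after the values were seen, and a match describes letters in the window; footprints do not measure transcription from it.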

How the data were processed

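Footprints were measured by ribosome profiling (RNase I digestion, ribosome pelleting, size selection, ribosomal RNA depletion, per the labels' protocols). The authors deposited raw counts per Ensembl transcript, with a length value of another, unstated unit, per the files themselves. The submitters' processing notes name STAR 2.7.0a, cutadapt 3.7, UMI-tools 1.1.2, CASAVA 1.8 and the build mm10. The counting program, annotation, strand setting and treatment of reads with several matches stay unknown, since they are not given in those sources. Isoforms have rows of their own, so totals count some footprints more than once.

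Where several rows had the same count in each of the 6 libraries, 1 was kept. With this merging, 30588 of 39355 rows with a count entered the test. Without it these were 35392 of 54710, so merging took out mostly rows too low to test. Percentiles among distinct rows, such as those of the keratins, were not computed without merging. Within 10 lines of a gene's row, 1 to 3 rows had counts within 2-fold for Vim, Epcam, Actb, Actg1 and Tuba1b and may share its footprints. Genotype was tested with edgeR 4.0.16 (R 4.3.3): filterByExpr, TMM, quasi-likelihood test, Benjamini-Hochberg over all rows. The SE is the absolute log2 fold change over the square root of F. DESeq2 1.42.0 and limma 3.58.1 were alternatives. Gene names and residue numbers came with the list of genes, matched on the deposited length value; all 10 genes are named by rule, and no others. Gene coordinates are RefSeq's (GRCm38.p6, the build mm10 stands for). Protein features such as tyrosine content were planned but not analysed here. The genes, lists, settings and ratios were chosen with earlier results of these data known.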

Additional observations from a re-analysis of the deposited data

How the results depend on the processing

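Actg1 kept a log2 fold change of 0.99 to 1.37 under 19 alternatives and an adjusted p under 0.05 in 15 of them; the adjusted p ran from 1.76e-05 (DESeq2) to 0.104 (without KO replicate 2). With KO replicates 2 and 3 summed its log2 fold change was 1.07 (adjusted p = 0.0967), so 0 genes were called higher. Leaving out each library gave 0 to 2 genes called higher, 0.99 to 1.37 for Actg1 and 0.42 to 0.74 for Actb, which passed without WT replicate 2 only. No direction reversed for the 7 tested genes under these alternatives, and 0 genes were called lower in any. Krt18 ran from -0.50 to -0.17, Epcam from -0.75 to -0.48 and Vim from 0.09 to 0.35. Tubb5 ran from 0.14 to 0.55 and Tuba1b from 0.07 to 0.33. Krt18 was weakest with library totals made equal by random thinning (-0.17, adjusted p by edgeR 0.737). The 5 ratios had 8 alternatives each; Actb over Actg1 differed by -0.63 to -0.57, Epcam over Vim by -0.94 to -0.62 and Krt8 over Krt18 by 0.51 to 1.19. Krt8 over Vim (0.0048 to 0.49) and Tubb5 over Tuba1b (0.02 to 0.21) came close to 0, so their direction is not settled. Nor is that of Krt8 over Krt18, whose genotypes overlapped (exact two-sided permutation p = 0.3, or 0.5 after adjustment). The alternatives share most of their libraries, so a kept sign does not by itself settle the direction of a ratio. Over all rows, 1571 were higher and 1315 lower; with glmTreat against a 1.2-fold change these were 928 and 758, with the KO pair summed 436 and 356, and with each library left out 368 to 2223 and 302 to 1715. By library sizes alone, 1413 were higher and 1754 lower. All fits with 1 library left out had the same number of samples, yet the counts depended on which library was removed. Removing KO replicate 2 or 3, the most alike pair, gave 368 or 410 higher and 302 or 312 lower. For KO replicate 1 the counts were 1154 higher and 867 lower. For WT replicates 1 to 3 they were 714, 2223 and 1345 higher and 689, 1715 and 1431 lower. The cause of these differences was not tested. With the replicate block Actg1 had 1.16 (adjusted p by edgeR 0.0210), and 1169 rows were higher and 944 lower. After each genotype's mean was removed, same-numbered libraries correlated at r = -0.03, 0.38 and -0.36. Deviations within a genotype sum to 0, so these values depend on each other. Whether the replicate numbers pair the libraries is thus not known. Depth limits the keratins: Krt8, Krt7 and Krt19 had 55, 9 and 3 counts over all 6 libraries.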
